A study of Gallus gallus with 21 samples.

Results

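In birds the female is the heterogametic sex. A hen carries a single Z chromosome and a W, whereas a cock carries a pair of Z chromosomes. The Z is a large chromosome with genes for many ordinary cell functions, and only a small part of them has kept a copy on the W. Mammals silence an X chromosome in each female cell, but birds are known to adjust Z expression gene by gene and incompletely, so a single Z copy usually yields less RNA than a pair of copies of the same gene.

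The Z mRNAs are all rows of the deposited mRNA table whose chromosome column reads Z. There were 640 of them among 14558 mRNAs, which is 4.40% of the table. They were set against the 12675 mRNAs on numbered chromosomes, which are called autosomal here. All birds were females, so no female to male ratio could be formed, and the Z was compared with autosomes within each library.

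RNA depleted of ribosomal RNA was sequenced from the cerebrum of female Tibetan chickens, with 1 bird per library. The libraries covered embryonic days 12, 16 and 20 (E12, n = 3; E16, n = 3; E20, n = 2), birds aged 100 days (D100, n = 3) and adult hens of 1, 3 and 5 years (Y1, n = 3; Y3, n = 2; Y5, n = 2). The labels name no engineered allele and no treatment. Eggs were incubated, embryos were sexed by PCR, and D100 birds were reared on a farm in Ya'an. By the labels the adult hens came from Lhasa, while the study's methods name the Ya'an farm alone, and if the labels hold, age and place of rearing cannot be told apart between these periods. The p-values measure only the spread between these 18 birds. The libraries of Y3 and Y5 are called replicate a and b, since their columns are numbered 2 and 3 where the labels number these birds 1 and 2.

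Levels are on the log2(FPKM+1) scale. FPKM scales the fragments of an mRNA by its length and by the total mapped in the library. A difference of 1 is a 2-fold difference in FPKM+1, and this scale understates the change of weakly expressed mRNAs. No read counts were at hand, so the depth and the counting error behind each level are unknown. The identifiers could not be paired with gene symbols, so roles of single genes are not given and the labelled tissue was not checked by marker genes. Between 32 and 37 of 37 W mRNAs lay above an FPKM of 0.1 in each library, and between 23 and 27 above 1. The table had been filtered by FPKM and no male library was at hand, so this check of the female label is weak. Reads of a Z gene and of a close W copy may be shared between them, and their split was not tested.

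A few libraries stood apart. By Pearson correlation across the 640 Z mRNAs, which are not independent replicates, 15 of 18 libraries were closest on average to libraries of their own stage. E16 replicate 3 correlated at 0.935 with the 3 E12 libraries and at 0.916 with the other E16 libraries. With the D100 libraries it correlated at 0.899, against 0.861 and 0.864 for E16 replicates 1 and 2. Y3 replicate a was closest to Y1 and Y3 replicate b to Y5. Across all 14558 mRNAs the same 3 libraries stood out, so this is not particular to the Z. E16 replicate 3 there correlated at 0.939 with E12 and at 0.920 with E16. In D100 replicate 3, mRNAs of the mitochondrial genome held 28.8% of all FPKM, against 0.427% to 5.62% in the 17 other libraries. Counts of calls in single comparisons are given with and without them. Other counts, such as those by peak stage or by the place of the D100 mean, include them throughout.

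Nearly all Z mRNAs of the table were detected in each library. The authors had filtered the table by FPKM, so this does not show how many Z genes the cerebrum expresses. Between 627 and 639 of the 640 lay above an FPKM of 0.1 in each library, and between 1 and 13 were listed at 0. In each library these groups made up all 640, so no Z value lay between 0 and 0.1. A listed 0 may thus stand for an FPKM of up to 0.1. Of all 14558 mRNAs between 57 and 318 were listed at 0. The levels of the Z mRNAs were nevertheless low as a group. The median Z mRNA lay below the median autosomal mRNA in 18 of 18 libraries, by 0.41 ± 0.05 on the log2(FPKM+1) scale (SD, n = 18).

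By stage, the Z median minus the autosomal median was -0.38, -0.40 and -0.41 at E12. It was -0.34, -0.40 and -0.51 at E16, where the lowest value belongs to replicate 3. At E20 it was -0.31 and -0.36, which places E20 replicate 1 nearest to the autosomes of all libraries. At D100 the difference was -0.49, -0.49 and -0.44, and replicates 1 and 2 were below 14 of the 15 libraries of other stages. At Y1 it was -0.41, -0.46 and -0.44, at Y3 -0.42 and -0.35, and at Y5 -0.40 and -0.37. The adult hens averaged -0.41 ± 0.04 (SD, n = 7) and the embryos -0.39 ± 0.06 (SD, n = 8), and the libraries of both periods overlapped. These level differences are a description and were not tested.

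**Figure D1:**
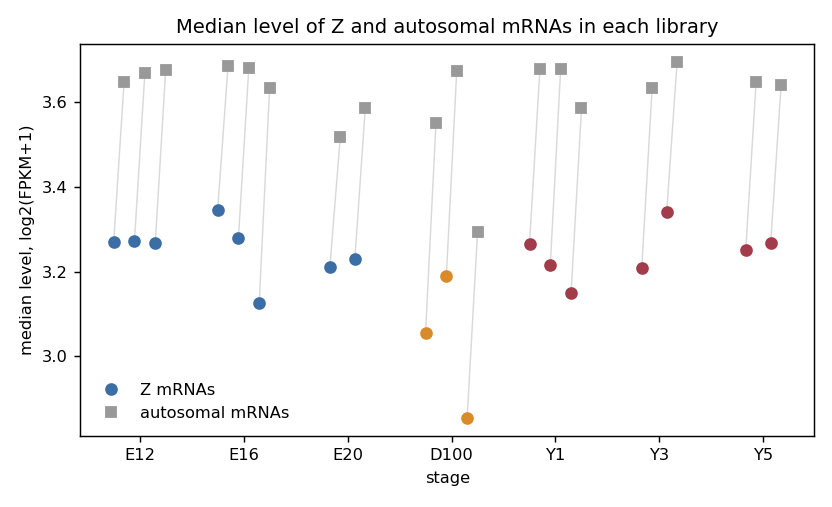
Median level of the 640 Z mRNAs (circles) and of the 12675 autosomal mRNAs (grey squares) in each library, in log2(FPKM+1), with a line joining the values of a library. Z medians lay between 2.85 and 3.35 and autosomal medians between 3.29 and 3.70, and the Z median was the lower in each library; the vertical axis does not start at 0.

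In FPKM, the median Z mRNA had 8.29 ± 0.69 and the median autosomal mRNA 11.3 ± 0.8 (SD, n = 18). The ratio of the medians was 0.731 ± 0.031 and ran between 0.677 and 0.790. The gap was not equal along the range of levels. At the lower quartile the ratio of Z to autosomal FPKM was 0.801 ± 0.055, and at the upper quartile it was 0.668 ± 0.034. At the 10th percentile it was 0.927 ± 0.088, and at the 90th percentile 0.669 ± 0.036. The lower quartile had the higher ratio in 18 of 18 libraries. The table had been filtered by FPKM, and the part of that filter in the ratios at low levels was not tested.

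**Figure D2:**
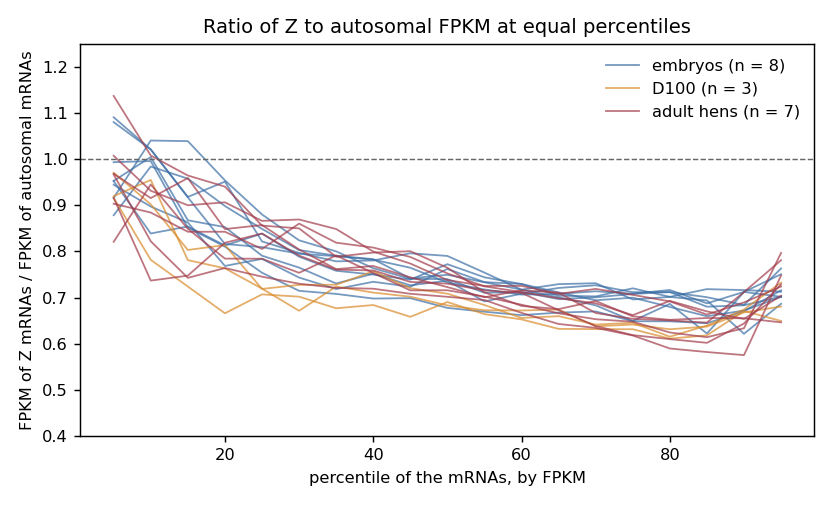
FPKM of Z mRNAs divided by FPKM of autosomal mRNAs at equal percentiles of the 2 distributions, with 1 line for each of the 18 libraries, coloured by period; the dashed line marks equal FPKM. The lines spread between 0.737 and 1.04 at the 10th percentile and between 0.618 and 0.720 at the upper quartile.

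The same shortfall appears in the classes of level. By mean FPKM over the 18 libraries, 38 Z mRNAs lay below 1, which is 5.94% of the Z, against 5.02% of autosomal mRNAs. Between 1 and 10 there were 304 Z mRNAs, or 47.5%, against 38.7% of autosomal mRNAs. Between 10 and 100 there were 277 Z mRNAs, or 43.3%, against 51.7%. At 100 or above there were 21 Z mRNAs, or 3.28%, against 4.56%. In this filtered table the Z therefore had more members at modest levels and fewer at high levels, with a similar share of weakly expressed mRNAs. Together the Z mRNAs held between 1.33% and 2.32% of all FPKM in a library, while they were 4.40% of the mRNAs. The lowest share was that of D100 replicate 3 with its 28.8% of mitochondrial FPKM, and of the FPKM of Z and autosomes alone the Z held between 1.52% and 2.41%, with 1.92% in that library.

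The Z had the lowest mean level of the 28 chromosomes with at least 100 mRNAs, but not in each library. The median of chromosome 24, a microchromosome with 161 mRNAs, lay 0.35 ± 0.12 below that of the other numbered chromosomes (SD, n = 18), and the median of chromosome 11 lay 0.26 ± 0.05 below. The Z was the lowest in 11 of 18 libraries, chromosome 24 in 5 and chromosome 27 in 2. In all 18 libraries 25 of the 27 other chromosomes lay above the Z. Among chromosomes 1 to 8, which hold at least 454 mRNAs each, the mean lay between -0.09 (chromosome 6) and 0.11 (chromosome 4). None of these went below -0.20 in any library, whereas the Z lay between -0.51 and -0.31. The Z thus lay at the edge of all autosomes through the small chromosomes 24 and 27, with 161 and 215 mRNAs, and below chromosomes 1 to 8.

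The Z output was spread unevenly over its mRNAs, and the same shares were not computed for autosomes. The 10 Z mRNAs with the highest mean FPKM over the 18 libraries held between 15.1% and 30.4% of the Z FPKM of a library, and the first 100 held between 58.2% and 65.0%. The member with the highest mean level averaged 8.68 over the 18 libraries and ran between 7.75 and 9.87. It was lower in adult hens than in embryos by 1.01 on the log2(FPKM+1) scale (limma, BH-adjusted p = 8.36e-05). Of the 10 Z mRNAs with the highest mean level, 6 were lower in adult hens under the call rule given next and 0 were higher, by limma with a BH-adjusted or an unadjusted p. By falling mean level the 6 differences were -1.01, -1.27, -1.15, -1.03, -3.00 and -1.09. Most thus lay close to the 2-fold limit, and their calls under other scalings were not checked. Of the 307 mRNAs of any chromosome at or above the mean level of the tenth, 7.31, 20.2% were lower in adult hens and 10.7% higher, and of the 277 autosomal ones 19.1% were lower and 9.03% higher. The list was chosen by level alone and holds 10 members, and its share was not tested against these.

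Stages were compared in 1 limma fit over all 14558 mRNAs. An mRNA was called where its Benjamini-Hochberg (BH) adjusted p was at most 0.05 and its difference was at least 2-fold. Over the 7 stages, an F test passed for 343 Z mRNAs, or 53.6% of the Z, against 55.2% of all mRNAs and 56.8% of autosomal mRNAs. The share of the Z lay near that background. The range of the 7 stage means had a median of 1.04 for Z mRNAs and 1.11 for autosomal mRNAs, and it exceeded 2 for 71 Z mRNAs, or 11.1%, against 12.9% of autosomal mRNAs. The SD between birds of a stage had a median of 0.303 for Z and 0.320 for autosomal mRNAs.

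Adult hens against embryos gave the most calls on the Z. In the 7 adult hens 33 Z mRNAs were higher (5.16%), against 7.09% of all mRNAs, and 28 were lower (4.38%), against 5.33% of all mRNAs. Both shares of the Z lay below the background, a difference that was not tested and for which no background of equal level was formed. Of 28 chromosomes it had the third lowest share of mRNAs higher in adult hens and the fifth lowest share of calls, at 9.53%, within a range between 8.18% and 16.2%. The median difference of all 640 Z mRNAs was -0.00418, against -0.0319 for all mRNAs. The total of 61 lay between 59 and 68 when single libraries were left out. It was 92 with a pseudocount of 0.1 in place of 1, a setting for which calls among all mRNAs were not counted. By Bonferroni adjustment it was 29, against 871 of all 14558 mRNAs. When libraries were scaled to the sum of their autosomal FPKM, 43 were higher and 19 lower, and the median autosomal difference then was 0.10 in place of -0.03.

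Among the called Z mRNAs, the libraries of both periods did not overlap for 20 that were higher in adult hens, where 3.87% of all mRNAs were of this kind, and for 20 that were lower, against 2.78% of all mRNAs. The first 20 are 3.12% of the Z and the second 20 likewise, so both shares lie near the background. The 10 largest of these rises were between 1.45 and 2.06, and the 10 largest falls between -1.31 and -3.00.

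ENSGALG00000042157 was the largest of these rises. It ran between 2.83 and 4.29 with a median of 3.50 in the 7 adult hens, and between 0.65 and 2.43 with a median of 1.53 in the 8 embryos. The D100 birds had 0.93, 1.81 and 3.04, so that they spread over both ranges. It averaged 3.55 ± 0.49 in adult hens and 1.55 ± 0.54 in embryos (SD), and the fitted difference of the stage means was 2.06 with an SE of 0.30 (limma, BH-adjusted p = 6.84e-05).

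ENSGALG00000015109 was an abundant member that was also higher at E20 than at E16. In adult hens it ran between 6.15 and 7.06 with a median of 6.60, and in embryos between 3.37 and 5.84 with a median of 4.36. From E12 to E20 its stage means were 3.61, 4.36 and 5.76, the D100 mean was 5.28, and the means of the 3 adult ages, from the youngest hens on, were 6.59, 6.96 and 6.17. It was higher in adult hens by 2.00 with an SE of 0.21 (limma, BH-adjusted p = 3.62e-06). The E20 mean exceeded the E16 mean by 1.40 (limma, BH-adjusted p = 0.0223), and the Y1 mean exceeded the D100 mean by 1.31 (limma, BH-adjusted p = 0.0262). At E16 it had 4.72 and 4.89, and 3.47 in replicate 3, the library nearer to E12. Neither step was called by Bonferroni adjustment. The Y1 step was also not called in a limma fit of only the stages compared. For this mRNA the steps were not followed with single libraries left out.

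ENSGALG00000027891 gave the largest fall of the Z on the log2(FPKM+1) scale. It ran between 5.17 and 6.68 with a median of 5.92 in adult hens, and between 8.13 and 10.06 with a median of 8.57 in embryos. The D100 birds had 6.53, 6.61 and 7.50, which lie between the means of both periods. The difference was -3.00 with an SE of 0.30 (limma, BH-adjusted p = 1.62e-06). In E20 replicate 2, where it reached 10.06, it alone held 7.94% of the Z FPKM, whereas its lowest share in any library was 0.298%.

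ENSGALG00000015691 was near 0 in all birds after the embryonic period. It ran between 0 and 0.83 with a median of 0.43 in adult hens, and between 1.00 and 5.17 with a median of 3.55 in embryos. It was listed at 0 in Y3 replicate a. The D100 birds, with 0.64, 0.34 and 0.34, lay within the adult range. The difference was -2.79 with an SE of 0.26 (limma, BH-adjusted p = 8.67e-07). With a pseudocount of 0.1 it was -4.45 and that of ENSGALG00000027891 -3.02, so the order of the falls turns with the pseudocount. For these 4 mRNAs the call held with each of the 15 libraries left out, and the difference stayed within 1.88 to 2.18, 1.85 to 2.09, -3.26 to -2.74 and -2.99 to -2.63 in the order given.

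**Figure D3:**
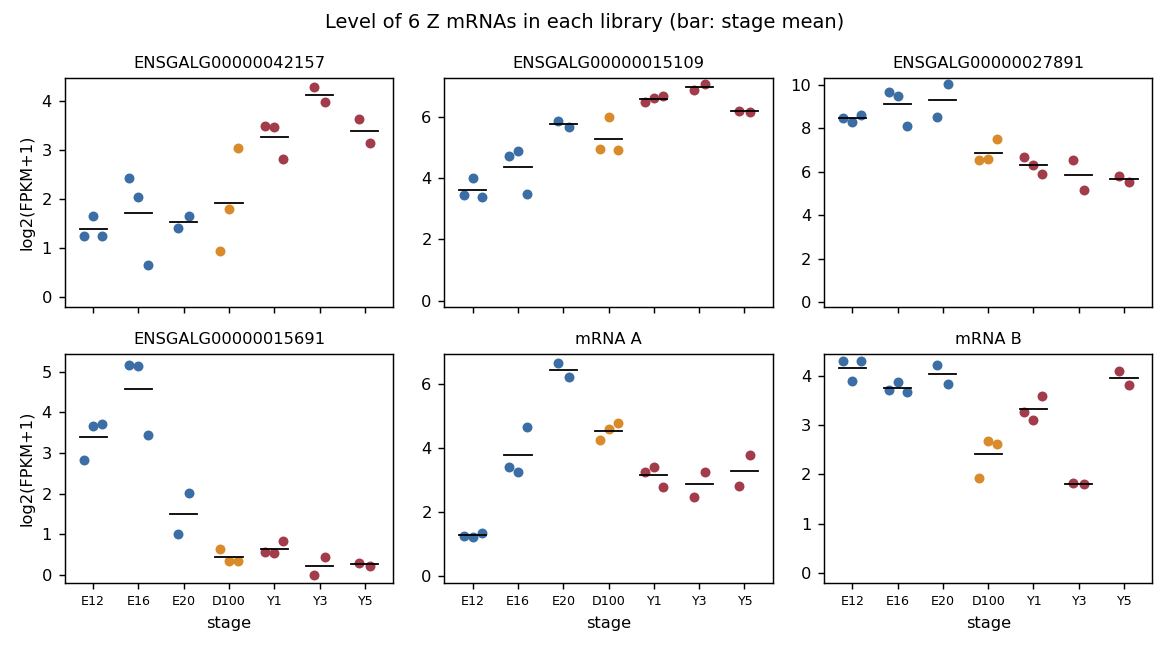
Level of 6 Z mRNAs in each library, in log2(FPKM+1), by stage, with a bar at the stage mean; mRNA A and mRNA B are described under the single steps. The upper left and middle mRNAs are higher in each of the 7 adult hens than in each of the 8 embryos, the upper right and lower left ones are lower, mRNA A peaks at 6.43 at E20, and mRNA B is lowest at 1.81 at Y3.

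The D100 birds took different sides, on the Z and among all mRNAs called. Of the 33 Z mRNAs higher in adult hens, the D100 mean lay between the means of embryos and adult hens for 23, beyond the adult hens for 4 and beyond the embryos for 6. Of the 28 that were lower in adult hens it lay between for 17, beyond the adult hens for 8 and beyond the embryos for 3. It lay nearer to adult hens than to embryos for 12 of the 33 higher ones and for 21 of the 28 lower ones. Among all mRNAs called higher, the D100 mean lay between for 73.4%, beyond the adult hens for 13.1% and beyond the embryos for 13.6%. The Z shares were 69.7%, 12.1% and 18.2%. Among all mRNAs called lower the shares were 63.1%, 26.5% and 10.3%, against 60.7%, 28.6% and 10.7% on the Z. The D100 mean lay nearer to adult hens for 47.8% of all mRNAs called higher and 73.1% of those called lower. The median autosomal difference was -0.10 at D100 against E20 and 0.15 at Y1 against D100 as deposited, and the part of this shift in these counts was not tested.

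**Figure D4:**
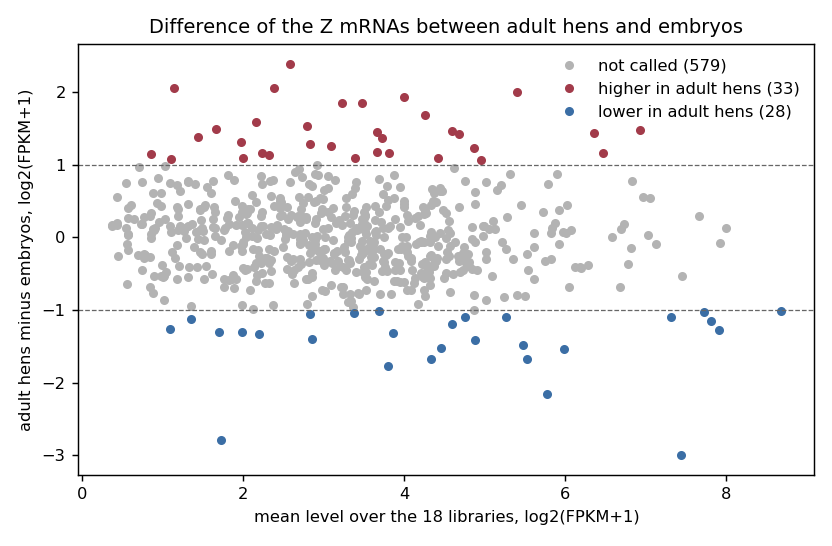
Difference between adult hens and embryos against the mean level over 18 libraries for the 640 Z mRNAs, both in log2(FPKM+1); red points were called higher in adult hens (33), blue points lower (28), and dashed lines mark a 2-fold difference. The falls include -3.00 at a mean level of 7.44. Of the 10 most abundant Z mRNAs 6 are blue, most of them close to the 2-fold line. Among all mRNAs of such levels 20.2% were called lower.

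Of the 6 steps between stages in sequence, E20 against E16 gave the most calls on the Z and Y3 against Y1 the fewest by BH adjustment in the fit of all stages. That order depends on the settings, since by Bonferroni adjustment E20 against E16 gave 0 calls and E16 against E12 gave 2, and a fit of only the stages compared gave 4 and 10. At E16 against E12, 1 Z mRNA was higher (0.156%), against 1.05% of all mRNAs, and 7 were lower (1.09%), against 1.43% of all mRNAs. This count of 8 rests on E16 replicate 3, since 37 were called without it, of which 16 were higher. It was 3 without E12 replicate 1 or E16 replicate 2, and 5 without E12 replicate 2, E12 replicate 3 or E16 replicate 1. With a scaling by the median ratio to a common library, 3 were higher and 7 lower.

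The mRNA that was higher, called mRNA A, had 3.41, 3.27 and 4.67 at E16, against 1.27, 1.22 and 1.36 at E12. The difference was 2.50 with an SE of 0.35 (limma, BH-adjusted p = 0.00208). It went up again at E20, with 6.65 and 6.21, and was then the largest rise against E16, by 2.65 with an SE of 0.39 (limma, BH-adjusted p = 0.000758). Both calls held without any single library of their stages. The rise at E20 was not called by Bonferroni (Bonferroni-adjusted p = 0.0802) or in a limma fit of only the stages compared (BH-adjusted p = 0.0528). At D100 it had 4.25, 4.60 and 4.78, a difference of -1.89 against E20 with an SE of 0.39 (limma, BH-adjusted p = 0.0110). This fall lost its call without E20 replicate 1, at -1.67, and by Bonferroni. It was not called in a limma fit of only the stages compared either (BH-adjusted p = 0.123). The stage means of mRNA A in adult hens lay between 2.88 and 3.30. mRNA A thus had its highest stage mean just before hatching, and it was chosen for description with its values known.

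The largest fall at E16 was in an mRNA that had 1.83, 1.89 and 1.54 at E16, against 4.83, 3.47 and 4.41 at E12. The difference was -2.48 with an SE of 0.29 (limma, BH-adjusted p = 0.000962), and the call held without any single library. E16 replicate 3, which resembles E12 across the Z and across all mRNAs, was not nearer to E12 for this mRNA.

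At E20 against E16, 16 Z mRNAs were higher (2.50%), against 2.90% of all mRNAs, and 35 were lower (5.47%), against 5.32% of all mRNAs. Both shares lie near the background. The count of 51 became 21 without E20 replicate 1, with 10 higher and 11 lower, and 54 without E16 replicate 3. The split depends on the scaling, with 21 higher and 29 lower by the median ratio and 25 higher and 26 lower when libraries were centred on their autosomal median. ENSGALG00000015691 gave the largest fall, with 1.00 and 2.00 at E20, against 5.17, 5.13 and 3.43 at E16. The difference was -3.08 with an SE of 0.45 (limma, BH-adjusted p = 0.000685), and the call held without any single library. It was lost by Bonferroni (Bonferroni-adjusted p = 0.0669) and in a limma fit of only the stages compared (BH-adjusted p = 0.0632).

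At D100 against E20, 5 Z mRNAs were higher (0.781%), against 2.28% of all mRNAs, and 20 were lower (3.12%), against 3.10% of all mRNAs. Few Z mRNAs were higher relative to the background. The total of 25 became 11 without E20 replicate 1, with 2 higher and 9 lower, and 29 without D100 replicate 3, with 10 higher and 19 lower. By the median ratio 10 were higher and 16 lower, and by the autosomal sum 12 were higher and 14 lower, so the count of higher mRNAs depends on the scaling. Calls among all mRNAs were not counted under these scalings, so whether the Z share stays below the background there was not tested. The median autosomal difference was -0.10 as deposited and -0.01 and 0.07 under these scalings.

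The largest rise at D100 was in an mRNA with 4.09, 4.10 and 3.97 at D100, against 2.66 and 2.44 at E20. The groups were far apart for their spread, and the difference was 1.51 with an SE of 0.24 (limma, BH-adjusted p = 0.00236), called without any single library too but not by Bonferroni (Bonferroni-adjusted p = 0.144) or with only the stages compared (BH-adjusted p = 0.163). ENSGALG00000027891 gave the largest fall, with 6.53, 6.61 and 7.50 at D100, against 8.52 and 10.06 at E20. The difference was -2.41 with an SE of 0.51 (limma, BH-adjusted p = 0.0122), and it lost its call without E20 replicate 2, at -1.64 (BH-adjusted p = 0.126), and with only the stages compared (BH-adjusted p = 0.177).

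At Y1 against D100, 19 Z mRNAs were higher (2.97%), against 3.35% of all mRNAs, and 6 were lower (0.938%), against 1.77% of all mRNAs. The direction of the step depends on the scaling, with 12 higher and 13 lower by the median ratio, 16 higher and 12 lower by the autosomal sum and 11 higher and 12 lower when centred on the autosomal median. The median autosomal difference was 0.15 as deposited and 0.01 by the median ratio. The count of 25 became 41 without D100 replicate 2, 27 without D100 replicate 3 and 11 without D100 replicate 1. It became 16, 12 and 15 without Y1 replicates 1, 2 and 3 in turn.

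The largest rises at Y1 were 1.99 and 1.95, and the largest falls exceeded them on the log2(FPKM+1) scale. With a pseudocount of 0.1 the order turned, with rises of 3.51 and 3.18, of which the second was not called, and falls of -2.85 and -2.69. One mRNA that fell had 4.13, 3.98 and 4.41 at Y1, against 7.52, 6.73 and 6.14 at D100, a difference of -2.62 with an SE of 0.44 (limma, BH-adjusted p = 0.00387), called without any single library too but not by Bonferroni (Bonferroni-adjusted p = 0.344). Another had 2.17, 2.54 and 3.06 at Y1, against 5.82, 5.35 and 4.52 at D100, a difference of -2.64 with an SE of 0.55 (limma, BH-adjusted p = 0.0110), which was not called without D100 replicate 1 (BH-adjusted p = 0.0539). For both, each D100 bird lay above each Y1 hen.

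At Y3 against Y1, 0 Z mRNAs were higher by limma (0%), against 0.0206% of all mRNAs, and 1 was lower (0.156%), against 0.0275% of all mRNAs. At an unadjusted p of at most 0.05, 7 were higher and 3 lower. The mRNA that was lower, called mRNA B and chosen with its values known, had 1.83 and 1.79 at Y3, against 3.25, 3.10 and 3.60 at Y1. The difference was -1.51 with an SE of 0.25 (limma, BH-adjusted p = 0.0496). With 1 library left out it was not called, with adjusted p between 0.109 and 0.131. The count was 0 without Y1 replicate 1, 2 or 3 or Y3 replicate a, and 2 without Y3 replicate b. Nor was mRNA B called in limma by the median ratio (BH-adjusted p = 0.0531) or the autosomal sum (BH-adjusted p = 0.0822). Its call was also lost by Bonferroni (Bonferroni-adjusted p = 0.345) and in a limma fit of only the stages compared (BH-adjusted p = 0.212). mRNA B was low at D100 too, with 1.92, 2.67 and 2.62, against 4.22 and 3.84 at E20. That difference was -1.62 with an SE of 0.25 (limma, BH-adjusted p = 0.00236). It was not called by Bonferroni or with only the stages compared.

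At Y5 against Y3, 5 Z mRNAs were higher (0.781%), against 0.522% of all mRNAs, and 1 was lower (0.156%), against 0.206% of all mRNAs. mRNA B was among the higher ones, with 4.10 and 3.80 at Y5, against 1.83 and 1.79 at Y3. The difference was 2.14 with an SE of 0.28 (limma, BH-adjusted p = 0.00233). It lost its call without Y5 replicate a, at 1.99, and in a limma fit of only the stages compared (BH-adjusted p = 0.0916). The Y3 step and the Y5 step of mRNA B share the 2 Y3 hens. The count of 6 became 14 without Y3 replicate b, 1 without Y3 replicate a or Y5 replicate b, and 0 without Y5 replicate a. Scaled by the autosomal sum, 4 were higher and 6 lower.

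**Figure D5:**
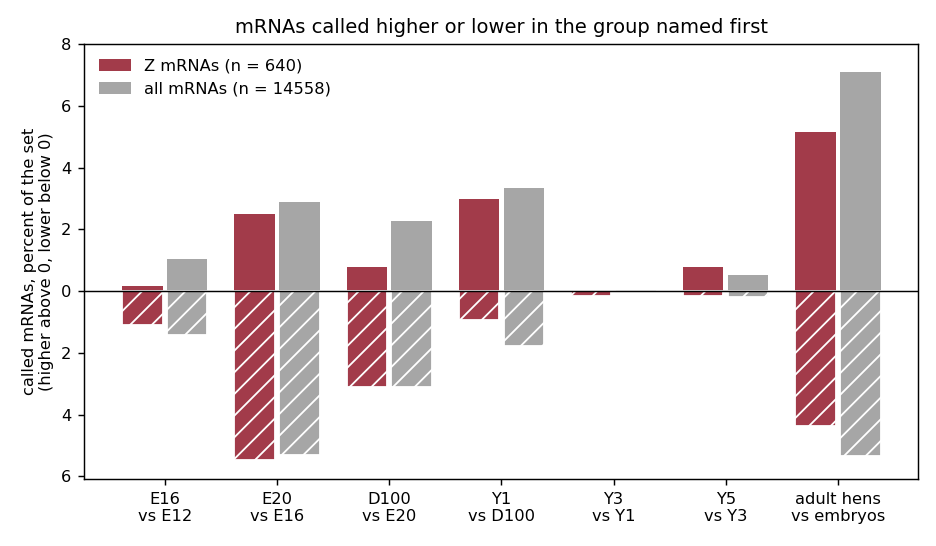
Share of mRNAs called in each comparison, in percent of the 640 Z mRNAs (red) and of all 14558 mRNAs (grey), with those higher in the group named first above 0 and those lower, hatched, below 0. The Z bars reach 5.16% and 4.38% for adult hens against embryos, where all mRNAs reach 7.09% and 5.33%, and only 0.156% at Y3 against Y1.

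Across the 6 steps 94 Z mRNAs, or 14.7%, were called at least once, against 18.6% of all mRNAs, and 18 more than once (2.81%, against 3.02%). A further 32 were called only between adult hens and embryos (5.00%, against 6.04%), and 514, or 80.3%, in no comparison, against 75.3% of all mRNAs. By the stage with the highest mean, 139 Z mRNAs peaked at E12 (21.7%, against 20.8% of autosomal mRNAs), 106 at E16 (16.6%, against 17.7%) and 76 at E20 (11.9%, against 12.8%). At D100 27 peaked (4.22%, against 7.76%) and at Y1 41 (6.41%, against 9.77%). At Y3 109 peaked (17.0%, against 15.0%) and at Y5 142 (22.2%, against 16.2%). D100 was the stage of the lowest mean for 159 Z mRNAs (24.8%), against 21.3% of autosomal mRNAs. These shares are a description of stage means and were not tested.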

How the data were processed

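The authors aligned reads to Gallus_gallus-5.0, assembled transcripts and computed FPKM, and they deposited mRNA levels as log2 of FPKM plus 1, a single table of 14558 mRNAs filtered by FPKM. The submitters' processing notes name HISAT, StringTie 1.3.3, Cufflinks 2.2.1 and DESeq2. Replicates were not pooled. The number of reads behind a value is not part of the table, so no counting interval is given. A further 3 value columns are named without a stage. They were left out, and D300 birds were not analysed here. The lncRNA table gives no chromosome and was not used.

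Stage means were fitted in R 4.3.3 with limma 3.58.1 over 18 libraries and all mRNAs, with a mean-dependent prior variance. A difference is the later group minus the earlier one. The mean of the 3 adult stage means was set against the mean of the 3 embryonic ones. The fit was tested on simulated data with independent normal noise for each mRNA. The simulation held no outlying library and no shift of a whole library, so it does not test how the calls respond to these. Descriptions and figures used pandas 2.3.3, numpy 2.4.6 and matplotlib 3.10.9 under Python 3.11.15.

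The single mRNAs described were the largest rises and falls among called Z mRNAs whose libraries do not overlap, and the 10 most abundant. Of 14558 identifiers 0 matched the name table of 25635 genes, so at most 2 identifiers that rose and 2 that fell are given, and planned lists of Z genes and cell type markers could not be applied. Members and lists were chosen with earlier results of these data known. The alternatives were other corrections, a filter on mean FPKM at 1, a pseudocount of 0.1, other scalings, only the stages compared, no variance trend, other autosomes, a replicate block and leaving out each library.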

Additional observations from a re-analysis of the deposited data

How the results depend on the processing

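The differences that were followed kept their sign under each alternative, and so did the mean level gap. They were the largest rises and falls of each step, mRNA A at D100 and Y1, and the mRNAs given by identifier in adult hens vs embryos. Most were chosen as large. The steps of ENSGALG00000015109, the D100 step of mRNA B and other Z mRNAs were not followed. The median difference of the Z in adult hens vs embryos was -0.00418 as deposited, 0.0156 by the median ratio and 0.105 by the autosomal sum. The split of higher and lower calls turned for Y1 vs D100, Y3 vs Y1 and Y5 vs Y3, as given beside these counts. With only the stages compared, Y1 vs D100 had 0 higher and 3 lower, and E20 vs E16 had 2 higher and 2 lower. With Bonferroni adjustment E16 vs E12 had 1 higher and 1 lower. The Z median minus the autosomal median was -0.51 against chromosome 4 alone and lay between -0.42 and -0.40 with 1 library left out. By Bonferroni adjustment the counts of called Z mRNAs were 2 (E16 vs E12), 0 (E20 vs E16), 0 (D100 vs E20), 1 (Y1 vs D100), 0 (Y3 vs Y1), 1 (Y5 vs Y3), 29 (adult hens vs embryos) and 25 (F test over stages), and ENSGALG00000042157 was not called. Over all 14558 mRNAs the Bonferroni counts of these comparisons, in the same order without the F test, were 23, 89, 34, 25, 1, 7 and 871. At an unadjusted p the counts on the Z were 22 (E16 vs E12), 59 (E20 vs E16), 39 (D100 vs E20), 38 (Y1 vs D100), 10 (Y3 vs Y1) and 36 (Y5 vs Y3). In the same order 813, 1570, 1232, 1140, 352 and 751 of all mRNAs passed. For the other settings, and with libraries left out, calls were counted on the Z alone, so no background stands beside them. A pseudocount of 0.1 gave 92 for adult hens vs embryos and 3 for Y5 vs Y3. The median ratio and the autosomal sum each gave 0 for Y3 vs Y1, and the autosomal sum gave 10 for Y5 vs Y3. A fit of only the stages compared, which has fewer birds to estimate the spread, gave 4 (E20 vs E16), 0 (D100 vs E20), 3 (Y1 vs D100) and 0 (Y5 vs Y3). Centring libraries on their autosomal median was added after the data were seen and kept each total within 1.5 times, but not the counts by direction, with 25 in place of 16 higher for E20 vs E16, 3 in place of 1 higher for E16 vs E12, and 11 higher and 12 lower in place of 19 and 6 for Y1 vs D100. The cause of these changes was not tested.

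With 1 library left out the counts lay between 3 and 37 (E16 vs E12), 21 and 54 (E20 vs E16), 11 and 33 (D100 vs E20), 11 and 41 (Y1 vs D100), 0 and 2 (Y3 vs Y1), 0 and 14 (Y5 vs Y3), 59 and 68 (adult hens vs embryos) and 286 and 375 (F test). Where this left a stage with 1 library, it was assumed to vary like the others. Same-numbered libraries share only a number. Deviations from the stage mean correlated between -0.34 and 0.34 over 26 such pairs and between -0.40 and 0.40 over 52 other pairs. With 2 libraries at E20 the deviations mirror each other, and in stages of 3 they sum to 0. These ranges therefore cannot decide whether libraries of equal number deviate together. With the replicate block, 5 (E16 vs E12), 39 (E20 vs E16), 13 (D100 vs E20) and 17 (Y1 vs D100) were called, against 8, 48, 21 and 24 without it on the same 14 libraries. No paired analysis was possible for the comparisons with Y3 or Y5 because their columns are numbered 2 and 3 and their titles 1 and 2, so that no column could be tied to a numbered bird; for adult hens vs embryos this left only Y1 numbered.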

Other observations

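The steadiest Z mRNAs at a mean FPKM of at least 1 were moderately expressed. The stage means of the 5 with the smallest range differed by 0.29 to 0.35 on the log2(FPKM+1) scale over the 7 stages, at mean levels between 2.71 and 4.63. Their single libraries spread more widely than the stage means. The steadiest one ran between 2.16 and 3.30 over the 18 libraries, and the second between 4.27 and 5.07.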
